A study of Homo sapiens with 16 samples.

Results

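The cell cycle and replication genes of the human stellate cell line LX-2 were described. The 40 members were taken by symbol, out of 61806 genes in the deposited table. They comprised 11 genes of G1/S control, 11 of DNA replication and nucleotide supply, 13 of S/G2 and mitosis and 5 CDK inhibitors, and 39 of them were among the 16029 genes that passed a filter on low counts. Poly(A) RNA had been sequenced from 4 groups of 4 libraries, all of the same line in reduced-serum medium, with 24 h of culture before treatment. Fn14_KO was a CRISPR/Cas9 knockout of total Fn14, the TWEAK receptor encoded by TNFRSF12A, and Fn14alpha_KO was a CRISPR/Cas9 knockout of its isoform Fn14α. Both knockouts received the PBS vehicle. The TWEAK group was unedited LX-2 that received TWEAK, a cytokine of the TNF family, for 2 h at 100 ng/mL, and WT was unedited LX-2 given PBS. The sources used here do not say whether a knockout line was 1 clone or pooled cells, so the edit and the history of its line cannot be told apart. The series' text calls the replicates biological without saying how they were separated, so the p-values reflect differences among these samples that may be technical.

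Passage from G1 into S phase is driven by D-type cyclins with CDK4 or CDK6 and by E-type cyclins with CDK2, which phosphorylate the retinoblastoma protein RB1 and free E2F factors to switch on replication genes. Replication origins are licensed in G1 when CDC6 and CDT1 load the ring of MCM proteins, and genes of G2 and mitosis are switched on later by complexes that include FOXM1. Stellate cells are quiescent in healthy liver and enter the cycle when they become activated, and LX-2, which was derived with the SV40 large T antigen, a viral protein that binds RB1, divides continuously in culture.

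Total counts per library ran from 13335919 to 16888606. TNFRSF12A, the edited gene, averaged 33.6 ± 2.77 FPKM in Fn14_KO, 59.3 ± 6.43 in Fn14alpha_KO, 130.4 ± 7.07 with TWEAK and 128 ± 6.29 in WT (SD, n = 4 libraries each), so a reduced but measurable level remained in both knockouts, where a count per gene does not separate its isoforms. Of 8 stellate cell markers, 6 passed the low count filter, and DES and LRAT did not. The summed FPKM of those 8 ran from 638 to 681 in Fn14_KO, 389 to 410.1 in Fn14alpha_KO, 712 to 795 with TWEAK and 529 to 564 in WT. The markers did not all follow that sum. Of the 6 tested, 3 were called higher and 2 lower than WT in Fn14_KO (50% and 33.3%, beside 26.6% and 26.3% of all genes). In Fn14alpha_KO 0 were higher and 5 lower (0% and 83.3%, beside 20% and 22.2%). With TWEAK 1 was higher and 1 lower (16.7% each, beside 4.82% and 2.05%), and their median log2 fold change was −0.18. Among markers of other liver cells, ALB, APOA1 and TTR of hepatocytes, PECAM1, CDH5 and VWF of endothelium, EPCAM and KRT19 of bile duct cells and PTPRC and CD3E of leukocytes failed the filter, whereas SERPINA1, KDR, KRT7 with SOX9, and CD68 with CD14 of the same 4 lists passed it, 1, 1, 2 and 2 of 4 markers each. The summed FPKM of the bile duct list was 11.27 to 12.8 in Fn14_KO, 5.57 to 7.2 in Fn14alpha_KO, 5.38 to 6.06 with TWEAK and 5.19 to 6.28 in WT, and that of the hepatocyte list was 0.26 to 0.72 in Fn14_KO, 1.02 to 1.38 in Fn14alpha_KO, 2.55 to 3.08 with TWEAK and 2.25 to 2.65 in WT. The endothelial list stayed at or under 0.52 FPKM and the leukocyte list at or under 2.1 FPKM in every library. SOX9 was higher (1.51 ± 0.09, adjusted p = 1.09e-12) and SERPINA1 lower (−2.38 ± 0.18, adjusted p = 1.19e-10) in Fn14_KO than in WT (edgeR). KRT7, the other bile duct marker that passed the filter, was called lower in Fn14_KO, so the bile duct list did not rise as a whole. The part of these markers in the members' results was not tested. On the third principal component, WT replicate 4 (−25.4) and Fn14_KO replicate 1 (−18.8) stood away from the remaining 14 libraries (−6.19 to 12.8). Counts of called members, and the values of PCNA, FOXM1 and MKI67, are given with and without these libraries. Other members' calls that were gained without them are not all named.

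The 250 bases before the RefSeq start of 4 members (GRCh38.p14) are printed because genes with the same motif were called in opposite directions in the main test. PCNA and CDT1 both carry an E2F match, and PCNA was higher but CDT1 lower in Fn14_KO than in WT. TOP2A and CDC20 both carry CHR and CCAAT matches, and TOP2A was higher but CDC20 lower in the same comparison. These pairs of opposite calls did not hold once the median fold change of neighbouring genes was removed, where TOP2A was at −0.09 and CDC20 at −0.26 and the calls of PCNA (0.04), CDT1 (−0.15) and TOP2A were lost. Capitals mark the matches. The E2F letters searched were TTTCCCGC, TTTGGCGC, TTTCGCGC and TTTGCCGC, the CHR letters TTTGAA and the CCAAT letters CCAAT, each on both strands, with no overlap between the matches printed here. PCNA is read from chr20:5126623-5126872 on the minus strand, CDT1 from chr16:88803539-88803788 on the plus strand, TOP2A from chr17:40417897-40418146 on the minus strand and CDC20 from chr1:43358731-43358980 on the plus strand.
PCNA: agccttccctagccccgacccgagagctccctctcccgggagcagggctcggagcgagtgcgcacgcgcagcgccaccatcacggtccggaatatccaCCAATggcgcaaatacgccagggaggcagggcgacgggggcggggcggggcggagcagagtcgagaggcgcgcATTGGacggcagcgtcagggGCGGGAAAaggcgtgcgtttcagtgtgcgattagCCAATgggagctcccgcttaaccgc
CDT1: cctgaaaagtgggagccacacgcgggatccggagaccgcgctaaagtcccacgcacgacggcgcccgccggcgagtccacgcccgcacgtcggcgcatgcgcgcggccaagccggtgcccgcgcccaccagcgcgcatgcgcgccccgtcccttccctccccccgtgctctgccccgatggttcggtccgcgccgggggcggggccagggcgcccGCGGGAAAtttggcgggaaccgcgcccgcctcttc
TOP2A: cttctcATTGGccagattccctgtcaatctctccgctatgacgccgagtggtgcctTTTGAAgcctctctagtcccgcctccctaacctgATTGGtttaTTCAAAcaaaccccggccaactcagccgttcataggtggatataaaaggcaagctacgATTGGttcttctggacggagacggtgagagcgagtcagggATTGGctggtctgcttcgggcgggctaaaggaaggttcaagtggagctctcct
CDC20: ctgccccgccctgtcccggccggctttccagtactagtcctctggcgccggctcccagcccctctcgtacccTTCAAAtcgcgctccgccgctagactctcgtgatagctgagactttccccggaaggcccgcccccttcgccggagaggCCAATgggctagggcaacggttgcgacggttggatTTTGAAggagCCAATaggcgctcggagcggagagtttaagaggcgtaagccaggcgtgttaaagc

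The E2F match began 59 bases before the start in PCNA and 35 bases before it in CDT1, and the nearest CHR match 151 bases before it in TOP2A and 65 in CDC20. RefSeq promoters were matched for 30 of the 40 members. Of 35116 promoters in the table, 2.79% held an E2F match, 13.3% a CHR match and 32% a CCAAT match in the same window. An E2F match was present in 6 of 9 replication members (MCM3, MCM6, MCM7, PCNA, CDT1 and TYMS) and in E2F1 and E2F2. A CHR match was present in 6 of 10 members of the S/G2 and mitosis class (CCNB2, CDK1, MKI67, TOP2A, PLK1 and CDC20), and all 10 held a CCAAT match. Before that removal, members of a motif group did not share a direction: of the 6 replication members with an E2F match, PCNA was called higher, CDT1 lower and the other 4 were not called in Fn14_KO against WT. After it, these 6 still did not share a direction, as MCM6 and MCM7 were called higher and MCM3 lower.

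In Fn14_KO, 13 of the 39 members tested were higher than in WT and 14 lower by edgeR's quasi-likelihood test (adjusted p under 0.05 over all genes), against 26.6% higher and 26.3% lower among all genes tested. Their shares of 33.3% and 35.9% were above that background by less than 10 percentage points. In Fn14alpha_KO, 8 members were higher and 8 lower than in WT, shares of 20.5% each that lie near the 20% and 22.2% of all genes. With TWEAK, 2 members were higher and 1 lower than in WT, 5.13% and 2.56% against 4.82% and 2.05% of all genes. Between the knockouts, 10 members were higher and 14 lower in Fn14_KO than in Fn14alpha_KO, 25.6% and 35.9% against 30.7% and 28.5% of all genes. Many of these differences were shared with neighbouring genes on the chromosome: with the median fold change of the 50 nearest tested genes on either side removed, 14 of the 27 calls in Fn14_KO and 6 of the 16 in Fn14alpha_KO remained in the same direction. With newly gained calls counted too, the number of members called went from 27 to 18 in Fn14_KO and from 16 to 9 in Fn14alpha_KO. Counted in that same way over all genes tested, the number called went from 8472 to 6731 in Fn14_KO and from 6771 to 5040 in Fn14alpha_KO. The heat map of the members' levels shows that the differences of the knockouts ran across all classes, whereas those of TWEAK stood in a few rows.

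**Figure D1:**
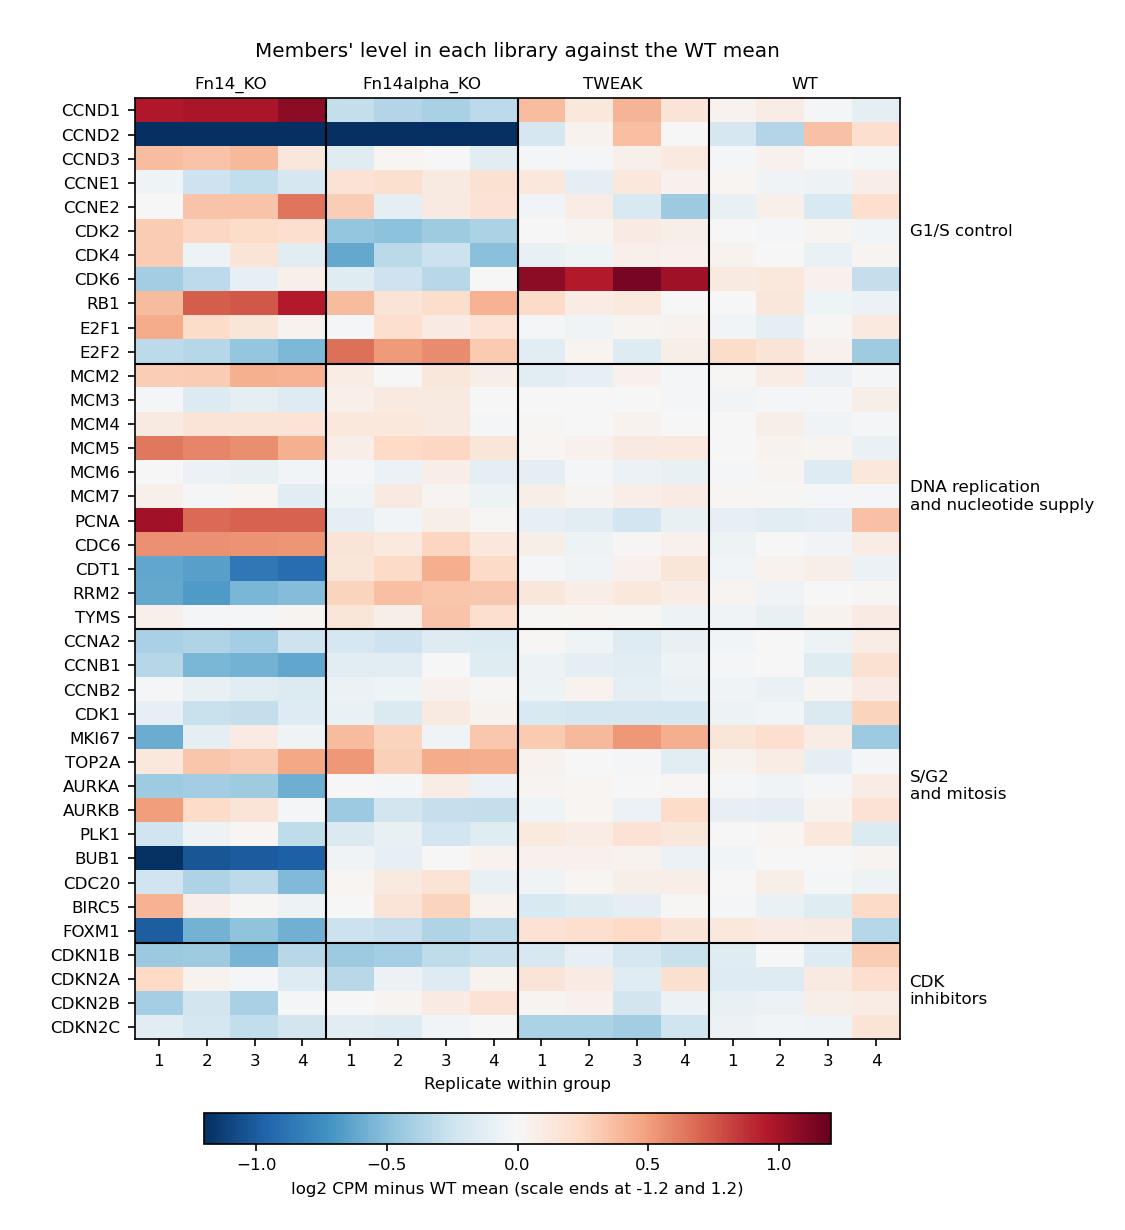
Each cell gives 1 library's log2 CPM of a member minus the mean of the 4 WT libraries, with members in rows by class and the 16 libraries in columns by group and replicate. CCND1, RB1, MCM5, PCNA and CDC6 are red in all 4 Fn14_KO libraries and CDT1, RRM2 and BUB1 blue, CDK6 is red in all 4 TWEAK libraries, and CCND2 lies below the end of the colour scale in both knockouts.

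The main scaling (TMM) puts the median log2 fold change of all genes near 0 in each comparison. Scaling by total counts moved that median to −0.12 in Fn14_KO against WT and −0.15 in Fn14_KO against Fn14alpha_KO, and the members' split to 9 higher and 21 lower in both comparisons. Higher calls then made up 36% of all calls in Fn14_KO against WT, where the main scaling gave 50.2%, and 37.3% between the knockouts, where it gave 51.9%. For TWEAK against WT the share was 43.9% with total counts and 70.2% with the main scaling, and for Fn14alpha_KO against WT 53% and 47.4%. The log2 fold changes of CCND3 (0.19), CDK2 (0.13) and TOP2A (0.19) were then smaller, and those of CCNE1 (−0.32), CDK1 (−0.33) and CDKN2C (−0.33) larger in size, by more than 1.5 times than with TMM in Fn14_KO against WT, with each of these calls kept. The calls of CCNE2, E2F1, MCM4 and AURKB in that comparison were lost (adjusted p = 0.142, 0.255, 0.697 and 0.344). Between the knockouts, the call of MCM2 was lost (0.0574), those of CCND3 (0.22), RB1 (0.27), MCM5 (0.22) and CDC6 (0.23) became smaller and those of MCM3 (−0.33), TYMS (−0.33) and CCNA2 (−0.31) larger, by more than 1.5 times. FPKM values are scaled by total counts as well, so levels in Fn14_KO read slightly lower beside WT than the fold changes do.

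Among the genes of G1/S control, CCND1 rose and CCND2 was almost lost in Fn14_KO, and 6 of the 11 were called higher and 3 lower (median log2 fold change 0.22), 54.5% and 27.3% beside 26.6% and 26.3% of all genes. The counts were 4 and 4 with total counts (median 0.10) and 4 and 2 with the neighbours' median removed (median 0.06). In Fn14alpha_KO 2 were higher and 4 lower (median −0.06), 18.2% and 36.4% beside 20% and 22.2%, and 1 and 3 with the neighbours' median removed. Between the knockouts 5 were higher and 2 lower in Fn14_KO (median 0.37), 45.5% and 18.2% beside 30.7% and 28.5%. The median of that comparison was 0.22 with total counts and 0.15 with the neighbours' median removed, where 3 were higher and 1 lower. In bulk RNA, a change in the share of cells at a phase of the cycle and a change in RNA per cell cannot be told apart, here and in every result below.

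CCND1, the D-type cyclin that pairs with CDK4 or CDK6, had 132, 135, 133 and 144 FPKM in Fn14_KO and 62, 58.7, 57.5 and 60.9 in Fn14alpha_KO. With TWEAK, CCND1 had 90.6, 77.8, 93.7 and 78.5 FPKM, against 76.5, 78.8, 72.3 and 67.3 in WT. All 4 Fn14_KO libraries lay above every other library and all 4 Fn14alpha_KO libraries below every other, while TWEAK overlapped WT. The log2 fold change (± SE throughout) was 1.00 ± 0.07 (adjusted p = 1.08e-11) for Fn14_KO and −0.33 ± 0.07 (adjusted p = 0.0003) for Fn14alpha_KO against WT (edgeR). The knockouts differed from each other by 1.33 ± 0.07 on the log2 scale (edgeR adjusted p = 4.96e-14). The genes beside CCND1 had medians of −0.02 and −0.01 in the 2 knockouts against WT. With TWEAK the change was 0.27 ± 0.07 (edgeR adjusted p = 0.0138), a call lost without TWEAK replicate 1 (0.0616) or TWEAK replicate 3 (0.0869) and with total counts (0.0588) or limma on log2(FPKM + 1) (0.0769), with adjusted p from 0.00241 to 0.0869 over all 19 alternatives.

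CCND2, a second D-type cyclin, was scarce in every group, at 0.383 ± 0.066 FPKM with TWEAK and 0.39 ± 0.0898 FPKM in WT (SD, n = 4), and nearly absent from the knockouts. Fn14_KO held 7 counts over its 4 libraries, Fn14alpha_KO 4 counts that all came from replicate 3, the TWEAK libraries 183 and the WT libraries 196. Scaled to total counts this was 27.3-fold lower in Fn14_KO than in WT (95% counting interval 12.99 to 68.7) and 45.3-fold lower in Fn14alpha_KO (17.4 to 168), and intervals of this kind cover counting error only. edgeR called both (adjusted p = 1.37e-08 and 8.9e-09), and the fitted log2 fold changes of −4.56 and −5.37 depend on its prior count (in Fn14alpha_KO −8.53 without replicate 3). CCND3, the other D-type cyclin, averaged 20.9 ± 1.53 FPKM in Fn14_KO, 18 ± 1.02 in Fn14alpha_KO, 18 ± 0.8 with TWEAK and 18.3 ± 0.546 in WT (means ± SD of 4 libraries throughout). Among the comparisons with WT, CCND3 was called higher in Fn14_KO only (0.31 ± 0.07, adjusted p = 0.00028, edgeR), with 3 of its 4 libraries above all WT libraries and replicate 4, at 18.65 FPKM, among them, and the call was lost with the neighbours' median removed (0.06), where CCND3 was instead called lower in Fn14alpha_KO (−0.50). Summed per library, the 3 D-type cyclins came to 157 ± 3.87 FPKM in Fn14_KO, 77.7 ± 1.09 in Fn14alpha_KO, 104 ± 8.12 with TWEAK and 92.4 ± 5.42 in WT. CCND1 made up 86.6 ± 1.27% of that sum in Fn14_KO, 76.9 ± 1.61% in Fn14alpha_KO, 82.2 ± 1.65% with TWEAK and 79.8 ± 0.862% in WT.

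CDK6, a kinase partner of the D-type cyclins, stood apart in the TWEAK group, with 4.79, 5.22, 6 and 6.76 FPKM in Fn14_KO and 6.51, 5.99, 5.7 and 7.17 in Fn14alpha_KO. With TWEAK, CDK6 had 14.1, 13.1, 14.8 and 13.6 FPKM, against 7.62, 7.67, 7.22 and 5.69 in WT. Every TWEAK library lay above all 12 libraries of the other groups, with a log2 fold change of 1.04 ± 0.10 (adjusted p = 4.86e-08) against WT (edgeR). Neither knockout passed the test against WT for CDK6 (−0.19 ± 0.10, adjusted p = 0.108 in Fn14_KO, and −0.18 ± 0.10, adjusted p = 0.14 in Fn14alpha_KO, edgeR), and both were called lower without WT replicate 4, at adjusted p = 0.0125 and 0.0203. CDK4, the other partner kinase, averaged 66.3 ± 8.98 FPKM in Fn14_KO, 52.4 ± 5.68 in Fn14alpha_KO, 65.4 ± 3.34 with TWEAK and 68.3 ± 2.74 in WT. It was lower in Fn14alpha_KO (−0.42 ± 0.09, adjusted p = 0.000368, edgeR) and not called in Fn14_KO (0.08, adjusted p = 0.48). CDK2, which works with cyclins E and A, had 44.3, 43.2, 42 and 42 FPKM in Fn14_KO and 29.3, 28.3, 29.9 and 31 in Fn14alpha_KO. With TWEAK, CDK2 had 37.4, 38.8, 40.3 and 39.6 FPKM, against 39.6, 39.2, 40.05 and 38.1 in WT. Its Fn14_KO libraries were all above, and its Fn14alpha_KO libraries all below, those of the other groups, with log2 fold changes against WT of 0.25 ± 0.05 (adjusted p = 0.000447) and −0.44 ± 0.05 (adjusted p = 5.14e-07, edgeR). Once the neighbours' median was removed, the call of CDK2 in Fn14_KO remained (0.27), and those of CDK2 (−0.01) and CDK4 (0.05) in Fn14alpha_KO were lost.

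RB1, which restrains E2F factors until it is phosphorylated, had 29.8, 38.3, 38.4 and 44.9 FPKM in Fn14_KO and 33.4, 28.1, 29.6 and 34.2 in Fn14alpha_KO. With TWEAK, RB1 had 27.8, 25.7, 26 and 24.1 FPKM, against 25, 27.5, 23.9 and 23.6 in WT. Both knockouts lay above WT in every library, and Fn14_KO, whose replicate 1 was its lowest, overlapped Fn14alpha_KO. The log2 fold change was 0.72 ± 0.09 (adjusted p = 4.36e-07) in Fn14_KO and 0.29 ± 0.09 (adjusted p = 0.0116) in Fn14alpha_KO against WT (edgeR), and the knockouts differed by 0.42 ± 0.09 (adjusted p = 0.000294, edgeR). Relative to the neighbours' median, RB1 was at 0.35 in Fn14_KO, still called, and at 0.20 in Fn14alpha_KO, no longer called. E2F2, an activating E2F, moved in opposite directions: its levels were 1.45, 1.43, 1.3 and 1.25 FPKM in Fn14_KO and 3.21, 2.86, 2.98 and 2.53 in Fn14alpha_KO. With TWEAK, E2F2 had 1.72, 1.96, 1.7 and 1.99 FPKM, against 2.31, 2.21, 2.03 and 1.45 in WT. It was highest in the Fn14alpha_KO libraries (0.51 ± 0.12, adjusted p = 0.00125 against WT, edgeR) and low in the Fn14_KO libraries (−0.44 ± 0.13, adjusted p = 0.00513), where WT replicate 4 at 1.45 FPKM reached into their range, and the direct difference was −0.94 ± 0.12 (adjusted p = 4.97e-07, edgeR). E2F1, the most abundant E2F among the members, averaged 65 ± 7.65 FPKM in Fn14_KO, 66.9 ± 4.26 in Fn14alpha_KO, 58.4 ± 1.62 with TWEAK and 60.6 ± 3.62 in WT. It was called higher in Fn14_KO (0.22 ± 0.08, adjusted p = 0.0175, edgeR), although the groups overlapped and the call was lost without WT replicate 2 (0.0667) or Fn14_KO replicate 1 (0.0904), or in a fit of the compared groups alone (0.0707), with adjusted p from 0.00372 to 0.702 over its alternatives. Net of the neighbours' median, E2F1 was at −0.04.

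The E-type cyclins, activators of CDK2, moved apart in Fn14_KO and by little. CCNE1 averaged 8.32 ± 0.615 FPKM in Fn14_KO, 11.9 ± 0.324 in Fn14alpha_KO, 10.3 ± 0.698 with TWEAK and 10.4 ± 0.413 in WT and was called lower (−0.20 ± 0.08, adjusted p = 0.0339, edgeR). CCNE2 averaged 4.04 ± 0.756 FPKM in Fn14_KO, 3.81 ± 0.471 in Fn14alpha_KO, 3.01 ± 0.47 with TWEAK and 3.44 ± 0.396 in WT and was called higher (0.34 ± 0.13, adjusted p = 0.0267, edgeR). The call for CCNE1 was lost without WT replicate 1 (0.0664), WT replicate 4 (0.0816), Fn14_KO replicate 2 (0.0855), Fn14_KO replicate 3 (0.101) or Fn14_KO replicate 4 (0.0537) and with the neighbours' median removed (−0.09; adjusted p over its alternatives 0.000407 to 0.379). For CCNE2 it was lost, among other settings, without WT replicate 1 (0.068), WT replicate 3 (0.0913) or Fn14_KO replicate 4 (0.141) (adjusted p over its alternatives 0.000331 to 0.209). Against Fn14alpha_KO, CCNE1 was also lower in Fn14_KO (−0.36 ± 0.08, adjusted p = 0.0003, edgeR), and CCNE2 did not pass (0.23, adjusted p = 0.127).

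**Figure D2:**
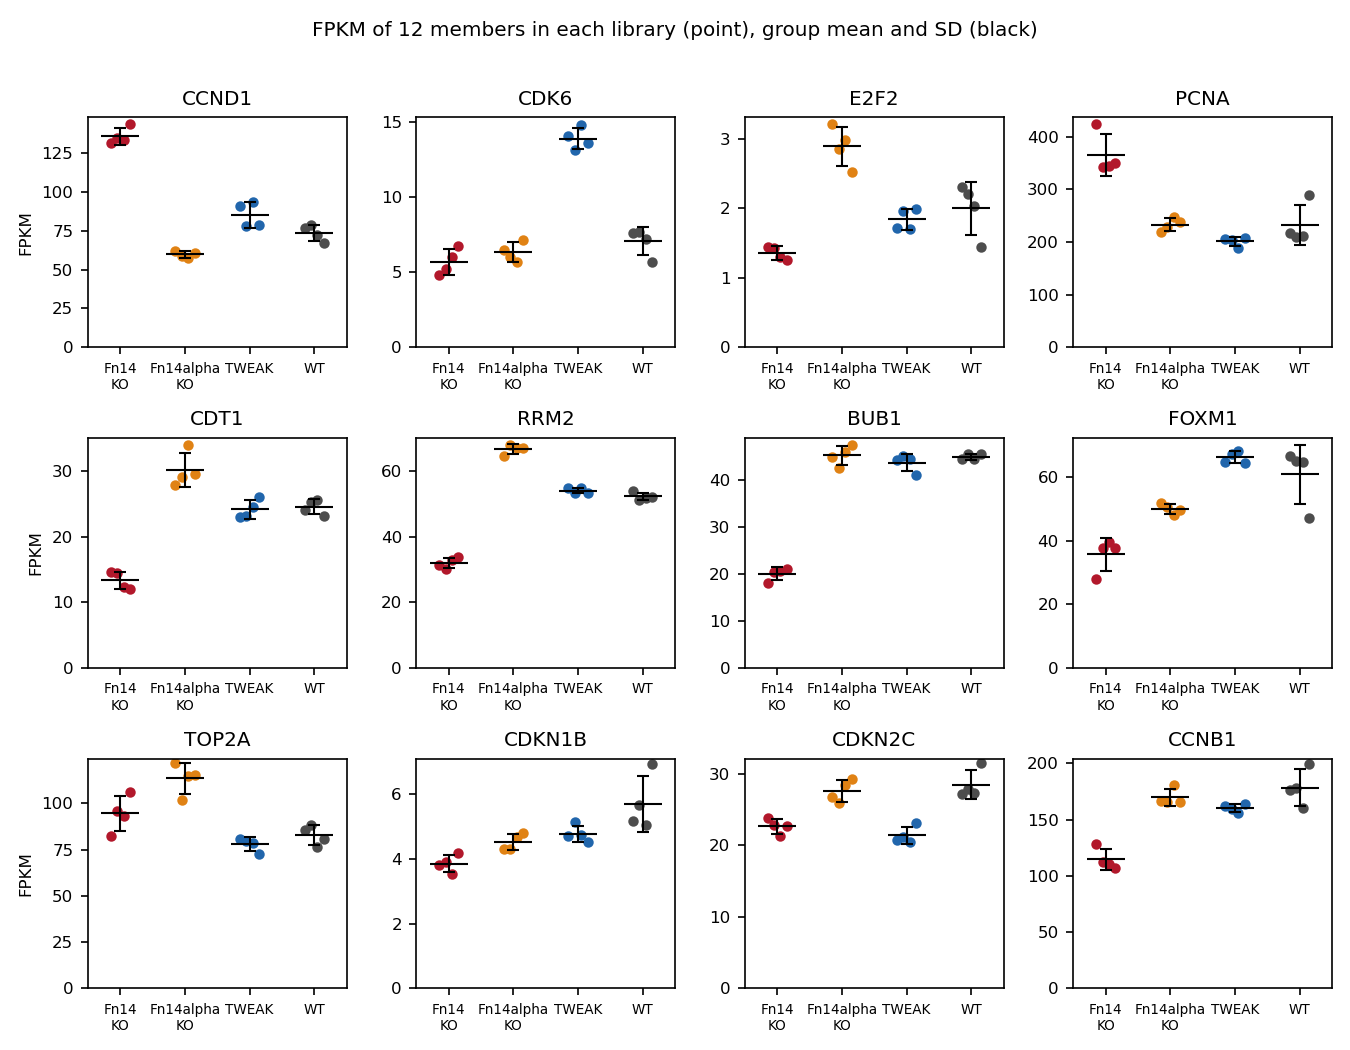
Points give the deposited FPKM of 12 members in each of the 4 libraries of Fn14_KO, Fn14alpha_KO, TWEAK and WT, and black bars the group mean and SD, on axes that start at 0. CCND1 and PCNA are highest and CDT1, RRM2 and BUB1 lowest in Fn14_KO, CDK6 is highest with TWEAK, and the WT libraries of PCNA and FOXM1 include replicate 4 far from the other 3.

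The genes of DNA replication split in Fn14_KO, where PCNA, CDC6, MCM5, MCM2 and MCM4 were called higher and CDT1 and RRM2 lower, and the other 4 were not called (median log2 fold change 0.01, and −0.10 with total counts). The shares of 45.5% higher and 18.2% lower stood beside 26.6% and 26.3% of all genes, and the counts were 4 and 5 with total counts and 3 and 2 with the neighbours' median removed. In Fn14alpha_KO, 5 were higher (RRM2, CDT1, TYMS, MCM5 and CDC6) and none lower (median 0.09), 45.5% and 0% beside 20% and 22.2% of all genes. After the neighbours' median was removed, 2 were higher and 1, CDC6, was lower (median 0.05). CDT1 and RRM2 were thus higher than WT in one knockout and lower in the other, and the direct comparison gave 4 higher and 4 lower in Fn14_KO, 36.4% each beside 30.7% and 28.5% of all genes, and 3 and 6 with total counts. No member of this class was called with TWEAK, beside 6.87% of all genes.

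PCNA, the sliding clamp of the replicative polymerases, was the most abundant member, with 424, 342, 344 and 349 FPKM in Fn14_KO and 218, 229, 248 and 238 in Fn14alpha_KO. With TWEAK, PCNA had 205, 204, 188 and 208 FPKM, against 217, 210.3, 211 and 289.8 in WT. All Fn14_KO libraries were above all others, although within Fn14_KO replicate 1 and within WT replicate 4 stood well above their groups. The log2 fold change was 0.77 ± 0.09 (adjusted p = 1.99e-07) against WT (edgeR), and 0.82 without those 2 libraries (adjusted p = 1.06e-14; 9.56e-26 to 0.73 over all alternatives). Once the neighbours' median was removed, it was 0.04 and the call was lost. Fn14alpha_KO did not pass against WT (−0.03 ± 0.09, adjusted p = 0.836, edgeR), and its libraries were lower than those of Fn14_KO (0.80 ± 0.09, adjusted p = 9.04e-08 for Fn14_KO minus Fn14alpha_KO).

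CDT1, which loads the MCM ring together with CDC6, had 14.6, 14.4, 12.4 and 12.1 FPKM in Fn14_KO and 27.9, 29.1, 33.9 and 29.6 in Fn14alpha_KO. With TWEAK, CDT1 had 22.9, 23.1, 24.4 and 26.1 FPKM, against 24.1, 25.3, 25.6 and 23.1 in WT. The Fn14_KO libraries were lowest and the Fn14alpha_KO libraries highest, without overlap with any other group. Against WT the log2 fold change was −0.76 ± 0.08 (adjusted p = 1.78e-08) in Fn14_KO and 0.26 ± 0.08 (adjusted p = 0.00746) in Fn14alpha_KO, and the knockouts differed by −1.02 ± 0.08 (adjusted p = 8.22e-11, edgeR). Relative to the neighbours' median, both calls against WT were lost (−0.15 and 0.07), and the knockouts still differed (−0.22). GMNN encodes geminin, the inhibitor of CDT1 (not itself a member), and was higher than WT in both knockouts (0.44 ± 0.08, adjusted p = 6.92e-05 in Fn14_KO, and 0.32 ± 0.08, adjusted p = 0.00259 in Fn14alpha_KO, edgeR), though not with its neighbours' median removed (0.11 and 0.00). The ratio of CDT1 to GMNN FPKM was 0.327 ± 0.0242 in Fn14_KO, 0.72 ± 0.0175 in Fn14alpha_KO, 0.907 ± 0.0594 with TWEAK and 0.762 ± 0.110 in WT (SD, n = 4). CDC6 itself had 23.8, 24.1, 23.6 and 23.8 FPKM in Fn14_KO and 20.2, 19.5, 21.7 and 19.9 in Fn14alpha_KO. With TWEAK, CDC6 had 17.8, 16.4, 17.2 and 17.6 FPKM, against 17.1, 17.9, 17.2 and 18.7 in WT. Its Fn14_KO libraries were highest, and the log2 fold change was 0.54 ± 0.06 (adjusted p = 2.99e-08) in Fn14_KO and 0.16 ± 0.06 (adjusted p = 0.0264) in Fn14alpha_KO against WT (edgeR). The second of these calls was lost, among other settings, without WT replicate 1 (0.0825), WT replicate 3 (0.0637) or Fn14alpha_KO replicate 3 (0.101), with adjusted p from 0.00382 to 0.182 over its alternatives. Net of the neighbours' median, CDC6 was called lower in Fn14alpha_KO (−0.20, edgeR adjusted p = 0.0114) and was not called in Fn14_KO (0.13).

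**Figure D3:**
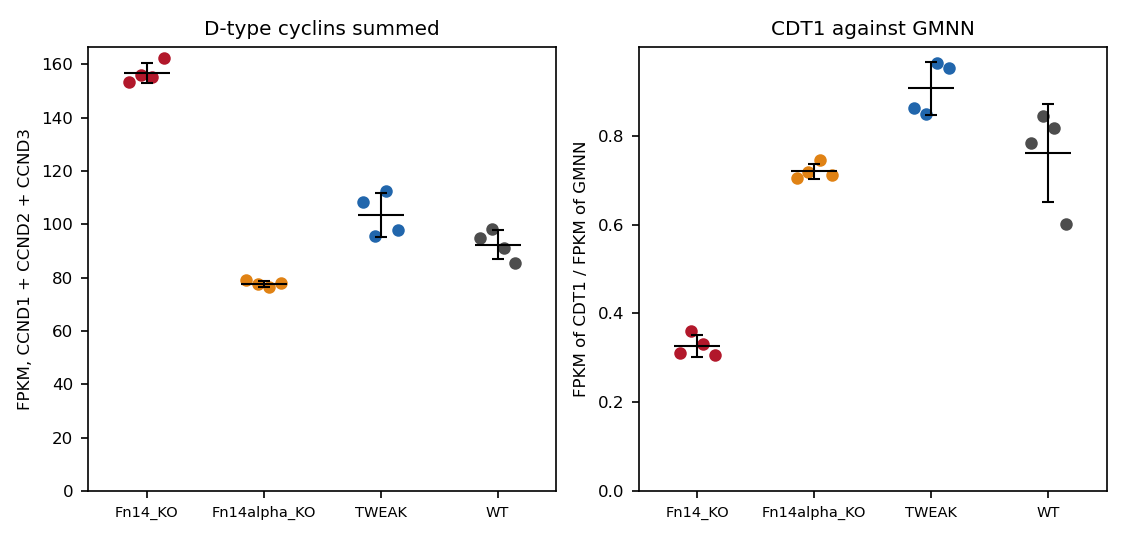
Points give, for each of the 4 libraries of Fn14_KO, Fn14alpha_KO, TWEAK and WT, the summed FPKM of CCND1, CCND2 and CCND3 (left) and the FPKM of CDT1 divided by that of GMNN (right), with the group mean and SD in black. Fn14_KO has the highest D-type cyclin sum, 157 FPKM on average, and the lowest ratio, 0.327 on average, and in WT replicate 4 has the lowest ratio.

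RRM2, the regulatory subunit of ribonucleotide reductase, which makes deoxynucleotides, had 31.4, 30.2, 32.8 and 33.8 FPKM in Fn14_KO and 64.6, 68, 67.1 and 67.1 in Fn14alpha_KO. With TWEAK, RRM2 had 54.7, 53.3, 54.8 and 53.2 FPKM, against 53.8, 51.1, 51.9 and 52.1 in WT. The Fn14_KO libraries were all below and the Fn14alpha_KO libraries all above WT, with log2 fold changes of −0.59 ± 0.05 (adjusted p = 2.46e-09) and 0.32 ± 0.05 (adjusted p = 3.64e-05, edgeR) and a difference of −0.91 ± 0.05 (adjusted p = 8.34e-13) between the knockouts. These were −0.23, 0.17 and −0.40 with the neighbours' median removed, each still called. TYMS, the thymidylate synthase, averaged 53.6 ± 1.6 FPKM in Fn14_KO, 67.3 ± 5.58 in Fn14alpha_KO, 55.2 ± 1.56 with TWEAK and 57.7 ± 2.89 in WT. TYMS was called higher in Fn14alpha_KO against WT (0.19 ± 0.06, adjusted p = 0.0176, edgeR), a call lost without WT replicate 1 (0.0514), WT replicate 2 (0.0664) or Fn14alpha_KO replicate 3 (0.0951) (adjusted p over its alternatives 0.000214 to 0.0951). Fn14_KO was lower in TYMS than Fn14alpha_KO (−0.18 ± 0.06, adjusted p = 0.0184, edgeR), a call lost without Fn14alpha_KO replicate 3 (0.103) (alternatives 8.57e-05 to 0.103).

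The 6 MCM genes encode the subunits of 1 helicase ring, and in Fn14_KO they did not move together. MCM5 had 32.3, 31.5, 30.6 and 28.4 FPKM in Fn14_KO and 24.6, 27.2, 27.5 and 25.7 in Fn14alpha_KO. With TWEAK, MCM5 had 22, 22.7, 23.4 and 23.6 FPKM, against 23, 23.4, 23.1 and 21.3 in WT. All Fn14_KO libraries lay above the rest. Its log2 fold change was 0.55 ± 0.06 (adjusted p = 3.94e-08) in Fn14_KO and 0.18 ± 0.06 (adjusted p = 0.0195) in Fn14alpha_KO against WT (edgeR). MCM2 averaged 46.1 ± 2.29 FPKM in Fn14_KO, 41.9 ± 1.69 in Fn14alpha_KO, 36.1 ± 2.09 with TWEAK and 38.9 ± 2.05 in WT (0.36 ± 0.06, adjusted p = 1.81e-05 in Fn14_KO against WT, edgeR). MCM4 averaged 26.4 ± 0.62 FPKM in Fn14_KO, 28.1 ± 1.23 in Fn14alpha_KO, 25.1 ± 0.389 with TWEAK and 25.9 ± 1.07 in WT (0.14 ± 0.05, adjusted p = 0.0276). The call for MCM4 was lost without WT replicate 1 (0.0552), WT replicate 3 (0.0707), Fn14_KO replicate 2 (0.0572) or Fn14_KO replicate 3 (0.0584) (alternatives 0.00759 to 0.697). That for MCM5 in Fn14alpha_KO was lost without WT replicate 4 (0.0509), Fn14alpha_KO replicate 2 (0.0614) or Fn14alpha_KO replicate 3 (0.0659) (alternatives 0.00554 to 0.312). MCM3 (−0.11), MCM6 (−0.05) and MCM7 (−0.01) did not pass in Fn14_KO against WT (edgeR adjusted p = 0.083, 0.519 and 0.857). MCM3, at 78.6 ± 3.11 FPKM in Fn14_KO and 98.8 ± 3.28 in Fn14alpha_KO, was lower in the first (−0.18 ± 0.05, adjusted p = 0.00637, edgeR). MCM7 was the most abundant subunit in every group, from 103 ± 5.06 FPKM in Fn14_KO to 116 ± 5.69 in Fn14alpha_KO. MCM6 averaged 23.9 ± 0.714 FPKM in Fn14_KO, 26.9 ± 1.51 in Fn14alpha_KO, 24.6 ± 0.849 with TWEAK and 26.9 ± 2.1 in WT. After the neighbours' median was removed, the calls of MCM5 (0.12 and 0.08) and MCM2 (0.01) were lost, MCM4 stayed higher (0.15), and in Fn14_KO MCM6 (0.25) and MCM7 (0.23) were called higher and MCM3 (−0.28) lower.

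The genes of S/G2 and mitosis were lower in Fn14_KO than in WT in 7 of 13 cases (BUB1, FOXM1, CCNB1, AURKA, CDC20, CCNA2 and CDK1) and higher in 2 (TOP2A and AURKB), with a median log2 fold change of −0.21. Taken per library, the median log2 CPM of the 13 relative to WT was −0.24, −0.27, −0.29 and −0.25 in Fn14_KO, against −0.03, 0.00, −0.01 and 0.09 in WT. In Fn14alpha_KO 3 were lower (CCNA2, AURKB and FOXM1) and 1 higher (TOP2A), with a median of −0.02, and Fn14_KO was lower than Fn14alpha_KO in 7 and higher in 1. The share of 53.8% lower stood beside 26.3% of all genes against WT and beside 28.5% between the knockouts, and it is a description of listed genes, with no test. In Fn14_KO against WT 9 were lower and 1 higher with total counts, and 7 and 0 with the neighbours' median removed. In Fn14alpha_KO the shares of 23.1% lower and 7.69% higher stood beside 22.2% and 20% of all genes, and 1 and 0 members were called with the neighbours' median removed.

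BUB1, a kinase of the spindle checkpoint, had 18.1, 20.4, 20.6 and 21.1 FPKM in Fn14_KO and 44.9, 42.6, 46 and 47.4 in Fn14alpha_KO. With TWEAK, BUB1 had 44.2, 45.1, 44.5 and 41 FPKM, against 44.4, 45.5, 44.4 and 45.4 in WT. The Fn14_KO libraries were all below every other library, and the log2 fold change was −1.05 ± 0.06 (adjusted p = 4.17e-13) against WT and −1.02 ± 0.06 (adjusted p = 5.02e-13) against Fn14alpha_KO (edgeR), or −0.50 and −0.51 with the neighbours' median removed, both still called. FOXM1, the forkhead factor of G2 and mitotic genes, had 27.9, 37.7, 39.6 and 37.7 FPKM in Fn14_KO and 51.8, 50.5, 48 and 49.8 in Fn14alpha_KO. With TWEAK, FOXM1 had 64.8, 67.3, 68.3 and 64.6 FPKM, against 66.7, 65.2, 64.9 and 47.1 in WT. Fn14_KO lay below every other group, and replicate 1 of Fn14_KO and replicate 4 of WT were each far below the rest of their group. The log2 fold change was −0.65 ± 0.10 (adjusted p = 4.53e-06) in Fn14_KO and −0.32 ± 0.10 (adjusted p = 0.0102) in Fn14alpha_KO against WT (edgeR). Without those 2 libraries the values were −0.66 and −0.42 (adjusted p = 1.13e-12 and 1.15e-08; over all alternatives 6.77e-18 to 0.705 and 1.15e-08 to 0.543). The call in Fn14alpha_KO was lost with limma on log2(FPKM + 1) (0.0537). Once the neighbours' median was removed, both calls were lost, at −0.05 in Fn14_KO (edgeR adjusted p = 0.705) and, in the other direction, 0.08 in Fn14alpha_KO (0.543).

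CCNB1, the main mitotic cyclin, had 129, 112, 110.2 and 107 FPKM in Fn14_KO and 167, 166, 181 and 165 in Fn14alpha_KO. With TWEAK, CCNB1 had 162, 159, 156 and 164 FPKM, against 176, 178, 159.96 and 199.5 in WT. Its Fn14_KO libraries lay below all others (−0.52 ± 0.07, adjusted p = 1.01e-06 against WT, and −0.42 ± 0.07, adjusted p = 1.84e-05 against Fn14alpha_KO, edgeR), and Fn14alpha_KO did not pass against WT (−0.11, adjusted p = 0.236). AURKA, a spindle pole kinase, averaged 94.5 ± 4.68 FPKM in Fn14_KO, 145 ± 6.8 in Fn14alpha_KO, 137 ± 1.5 with TWEAK and 141 ± 4.94 in WT (−0.46 ± 0.06, adjusted p = 3.16e-07 for Fn14_KO against WT, edgeR). CDC20, the activator of the anaphase-promoting complex, averaged 65.8 ± 5.15 FPKM in Fn14_KO, 97.3 ± 7.02 in Fn14alpha_KO, 90.2 ± 3.75 with TWEAK and 91.8 ± 4.05 in WT (−0.36 ± 0.07, adjusted p = 7.82e-05). CCNA2, cyclin A2 of S and G2 phase, was lower in both knockouts, with 53.6 ± 3.13 FPKM in Fn14_KO, 66.4 ± 2.18 in Fn14alpha_KO, 67.9 ± 3.11 with TWEAK and 74.2 ± 3.08 in WT. Its log2 fold changes were −0.35 ± 0.06 (adjusted p = 2.1e-05) in Fn14_KO and −0.19 ± 0.06 (adjusted p = 0.011) in Fn14alpha_KO against WT (edgeR). CDK1, the mitotic kinase, averaged 41.4 ± 2.67 FPKM in Fn14_KO, 52 ± 4.63 in Fn14alpha_KO, 43.1 ± 0.222 with TWEAK and 51.9 ± 6.93 in WT. CDK1 was called lower in Fn14_KO (−0.21 ± 0.08, adjusted p = 0.0305, edgeR), a call lost without WT replicate 4 (0.18), Fn14_KO replicate 2 (0.0852) or Fn14_KO replicate 3 (0.0921) (alternatives 0.000274 to 0.18). CCNA2 was also lower in Fn14_KO than in Fn14alpha_KO (−0.16 ± 0.06, adjusted p = 0.0232, edgeR). That call was lost, among other settings, without Fn14alpha_KO replicate 3 (0.0605), Fn14alpha_KO replicate 4 (0.0536), Fn14_KO replicate 2 (0.0507) or Fn14_KO replicate 3 (0.071) (alternatives 8.94e-05 to 0.144). Relative to the neighbours' median, the Fn14_KO calls of CCNB1 (−0.41), CDC20 (−0.26), AURKA (−0.25), CCNA2 (−0.16) and CDK1 (−0.40) remained, and that of CCNA2 in Fn14alpha_KO was lost (0.10).

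TOP2A, the topoisomerase that untangles sister chromosomes, went the other way, with 82.6, 96, 93.3 and 106 FPKM in Fn14_KO and 122, 102, 115 and 115 in Fn14alpha_KO. With TWEAK, TOP2A had 80.8, 79.7, 78.7 and 72.8 FPKM, against 85.8, 88.4, 76.3 and 80.5 in WT. Fn14alpha_KO lay above WT in every library and Fn14_KO in 3 of 4, with log2 fold changes of 0.42 ± 0.07 (adjusted p = 3.84e-05) and 0.31 ± 0.07 (adjusted p = 0.000806, edgeR). Net of the neighbours' median, both calls were lost, at 0.07 in Fn14alpha_KO and, in the other direction, −0.09 in Fn14_KO (edgeR adjusted p = 0.493 and 0.362). The knockouts did not pass against each other in TOP2A (−0.11, adjusted p = 0.172). AURKB, the kinase of the chromosomal passenger complex, had 78.3, 65, 61.3 and 55.1 FPKM in Fn14_KO and 45.6, 52.6, 50.7 and 50.6 in Fn14alpha_KO. With TWEAK, AURKB had 55.5, 59.4, 55.2 and 67.4 FPKM, against 56.5, 55.8, 61.9 and 67.3 in WT. Fn14alpha_KO was lowest (−0.31 ± 0.09, adjusted p = 0.00977 against WT, edgeR) and the libraries of Fn14_KO overlapped those of WT (0.22 ± 0.09, adjusted p = 0.048), while the knockouts differed by 0.53 ± 0.09 (adjusted p = 3.25e-05, edgeR). The call of Fn14_KO against WT for AURKB was lost without WT replicate 1 (0.129), WT replicate 2 (0.139), WT replicate 3 (0.0636), Fn14_KO replicate 1 (0.227) or Fn14_KO replicate 2 (0.079), and with the DESeq2 size factors or the DESeq2 test (0.0574 and 0.0642; alternatives 0.00802 to 0.556). After the neighbours' median was removed, AURKB was at −0.07 in Fn14_KO, not called, and at −0.34 in Fn14alpha_KO, still called. PLK1, CCNB2, BIRC5 and MKI67 passed in no comparison with WT in the main test, and their log2 fold changes in Fn14_KO were −0.14, −0.10, 0.12 and −0.16 (edgeR adjusted p = 0.0923, 0.172, 0.31 and 0.335). They encode a mitotic kinase, a B-type cyclin, survivin and the Ki-67 proliferation antigen, and CCNB2 was called lower in Fn14_KO with the neighbours' median removed (−0.44).

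MKI67, the proliferation marker, had 15.8, 22.4, 25.5 and 23.4 FPKM in Fn14_KO and 34.8, 31.8, 25.9 and 33.5 in Fn14alpha_KO. With TWEAK, MKI67 had 30.8, 33, 35.8 and 33.8 FPKM, against 29.1, 30.1, 27.6 and 19 in WT. WT replicate 4 and Fn14_KO replicate 1 were the lowest of their groups, and all 4 TWEAK libraries lay above all 4 WT libraries. TWEAK against WT did not pass (0.39 ± 0.14, adjusted p = 0.0963, edgeR) and did so without those 2 libraries (0.27, adjusted p = 0.0133) and with the DESeq2 test (0.0452), with adjusted p from 0.0133 to 0.276 over its alternatives. Fn14_KO was lower than Fn14alpha_KO (−0.38 ± 0.14, adjusted p = 0.022, edgeR), a call lost, among other settings, without Fn14alpha_KO replicate 1 (0.0595) or Fn14_KO replicate 1 (0.0734) (alternatives 0.00232 to 0.213).

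Of the 4 CDK inhibitors that passed the low count filter, 2 were lower in Fn14_KO than in WT (CDKN1B and CDKN2C), 1 in Fn14alpha_KO (CDKN1B) and none higher in that fit. These were 50% beside 26.3% of all genes and 25% beside 22.2%. Once the neighbours' median was removed, none was lower in either knockout, and CDKN1B was called higher in Fn14alpha_KO (0.25, edgeR adjusted p = 0.0301) and not called in Fn14_KO (0.22, 0.0522), nor was CDKN2C (−0.07). The fifth, CDKN1C, failed the filter and was called higher in Fn14alpha_KO in a fit with no filter. CDKN1B encodes p27, an inhibitor of cyclin E with CDK2, and had 3.81, 3.9, 3.53 and 4.18 FPKM in Fn14_KO and 4.3, 4.32, 4.67 and 4.82 in Fn14alpha_KO. With TWEAK, CDKN1B had 4.71, 5.14, 4.73 and 4.52 FPKM, against 5.18, 5.68, 5.05 and 6.94 in WT. Every library of both knockouts lay below every WT library, whose replicate 4 was the highest, and the log2 fold change was −0.45 ± 0.09 (adjusted p = 0.000134) in Fn14_KO and −0.37 ± 0.09 (adjusted p = 0.00151) in Fn14alpha_KO (edgeR). CDKN2C encodes p18, an inhibitor of CDK4 and CDK6, and had 23.9, 22.8, 21.3 and 22.7 FPKM in Fn14_KO and 26.8, 25.9, 28.5 and 29.2 in Fn14alpha_KO. With TWEAK, CDKN2C had 20.8, 21.2, 20.4 and 23.1 FPKM, against 27.2, 27.9, 27.3 and 31.6 in WT. The TWEAK and Fn14_KO libraries all lay below every WT library, with log2 fold changes of −0.36 ± 0.07 (adjusted p = 0.000999) and −0.21 ± 0.07 (adjusted p = 0.0101, edgeR). Fn14alpha_KO overlapped WT (−0.08, adjusted p = 0.366).

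CDKN2B, which encodes p15, averaged 1.83 ± 0.259 FPKM in Fn14_KO, 2.56 ± 0.149 in Fn14alpha_KO, 2.19 ± 0.19 with TWEAK and 2.37 ± 0.133 in WT. It passed only in Fn14_KO against Fn14alpha_KO (−0.33 ± 0.11, adjusted p = 0.0134, edgeR; 0.0602 with no filter on low counts, alternatives 0.000416 to 0.17), with −0.25 ± 0.11 (adjusted p = 0.0597) against WT. CDKN2A, whose single count covers the transcripts of p16 and ARF, averaged 44.1 ± 4.92 FPKM in Fn14_KO, 44 ± 4.7 in Fn14alpha_KO, 47.5 ± 4.75 with TWEAK and 47 ± 5.6 in WT. CDKN2A passed in no comparison (log2 fold changes 0.02 in Fn14_KO, −0.13 in Fn14alpha_KO and 0.07 with TWEAK). CDKN1C, which encodes p57, failed the low count filter, with 2 counts over the 4 Fn14_KO libraries, 47 in Fn14alpha_KO, 15 with TWEAK and 13 in WT. The ratio of Fn14alpha_KO to WT was 3.91 after scaling to total counts (95% counting interval 2.08 to 7.87) and that of Fn14_KO to Fn14alpha_KO 0.0404 (0.00476 to 0.154). In the fit with no filter edgeR called these (adjusted p = 0.00534 and 4.99e-07) and did not call Fn14_KO against WT (0.0599), and replicate 1 of Fn14alpha_KO, at 0.08 FPKM, was at the level of WT.

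After 2 h of TWEAK, 36 of the 39 members did not pass against WT, and the 3 that did were CDK6, CCND1 and the inhibitor CDKN2C. Higher and lower calls made up 5.13% and 2.56% of the 39, near the 4.82% and 2.05% of all genes. CDK6 was higher and CDKN2C lower in every TWEAK library than in any WT library. CCND1 was called higher, but its libraries overlapped WT and some alternatives lost the call. CCND2, CCND3, CDK4 and the other CDK inhibitors tested were not called. The other 36 ran from −0.21 for CDK1 (edgeR adjusted p = 0.121) to 0.39 for MKI67, and none of the 11 replication genes or the 13 of S/G2 and mitosis was called. With only 6.87% of all genes called, no call in classes of this size lies near that background. CDK1 was called lower with total counts (0.0366; alternatives 0.0366 to 0.459). All TWEAK libraries of CDK1, at 43.3, 43.1, 43.2 and 42.8 FPKM, lay below those of WT, at 49.9, 50.7, 45.4 and 61.7 FPKM.

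Set side by side, the knockouts, which share the same WT libraries, had both been called higher in CDC6, MCM5, RB1 and TOP2A and both lower in CCNA2, CCND2, CDKN1B and FOXM1. CCND1, CDK2 and AURKB were higher in Fn14_KO and lower in Fn14alpha_KO, and CDT1, E2F2 and RRM2 lower in Fn14_KO and higher in Fn14alpha_KO. For each of those 6 the direct comparison of the knockouts also passed, with log2 differences of 1.33, 0.68 and 0.53 for the first 3 and −1.02, −0.94 and −0.91 for the others (Fn14_KO minus Fn14alpha_KO, edgeR adjusted p between 4.96e-14 and 3.25e-05). Relative to the neighbours' median, CCND1, CCND2, E2F2 and RRM2 remained called in both knockouts against WT and the other 10 of these 14 in one knockout or neither. Fn14_KO alone was called against WT in 13 members, 6 higher (CCND3, CCNE2, E2F1, MCM2, MCM4 and PCNA) and 7 lower (AURKA, BUB1, CCNB1, CCNE1, CDC20, CDK1 and CDKN2C), and Fn14alpha_KO alone in TYMS and CDK4. A call in one knockout alone does not show a difference between the knockouts. PCNA and BUB1 also passed between them, whereas CCNE2 did not, and E2F1 averaged 65 FPKM in Fn14_KO and 66.9 in Fn14alpha_KO. BIRC5, CCNB2, CDK6, CDKN2A, CDKN2B, MCM3, MCM6, MCM7, MKI67 and PLK1 were called in neither knockout against WT. Of all genes tested, 52.9% were called in Fn14_KO and 42.2% in Fn14alpha_KO against WT. The share of all genes in each joint pattern is not given here, so these patterns cannot be read as particular to the members.

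**Figure D4:**
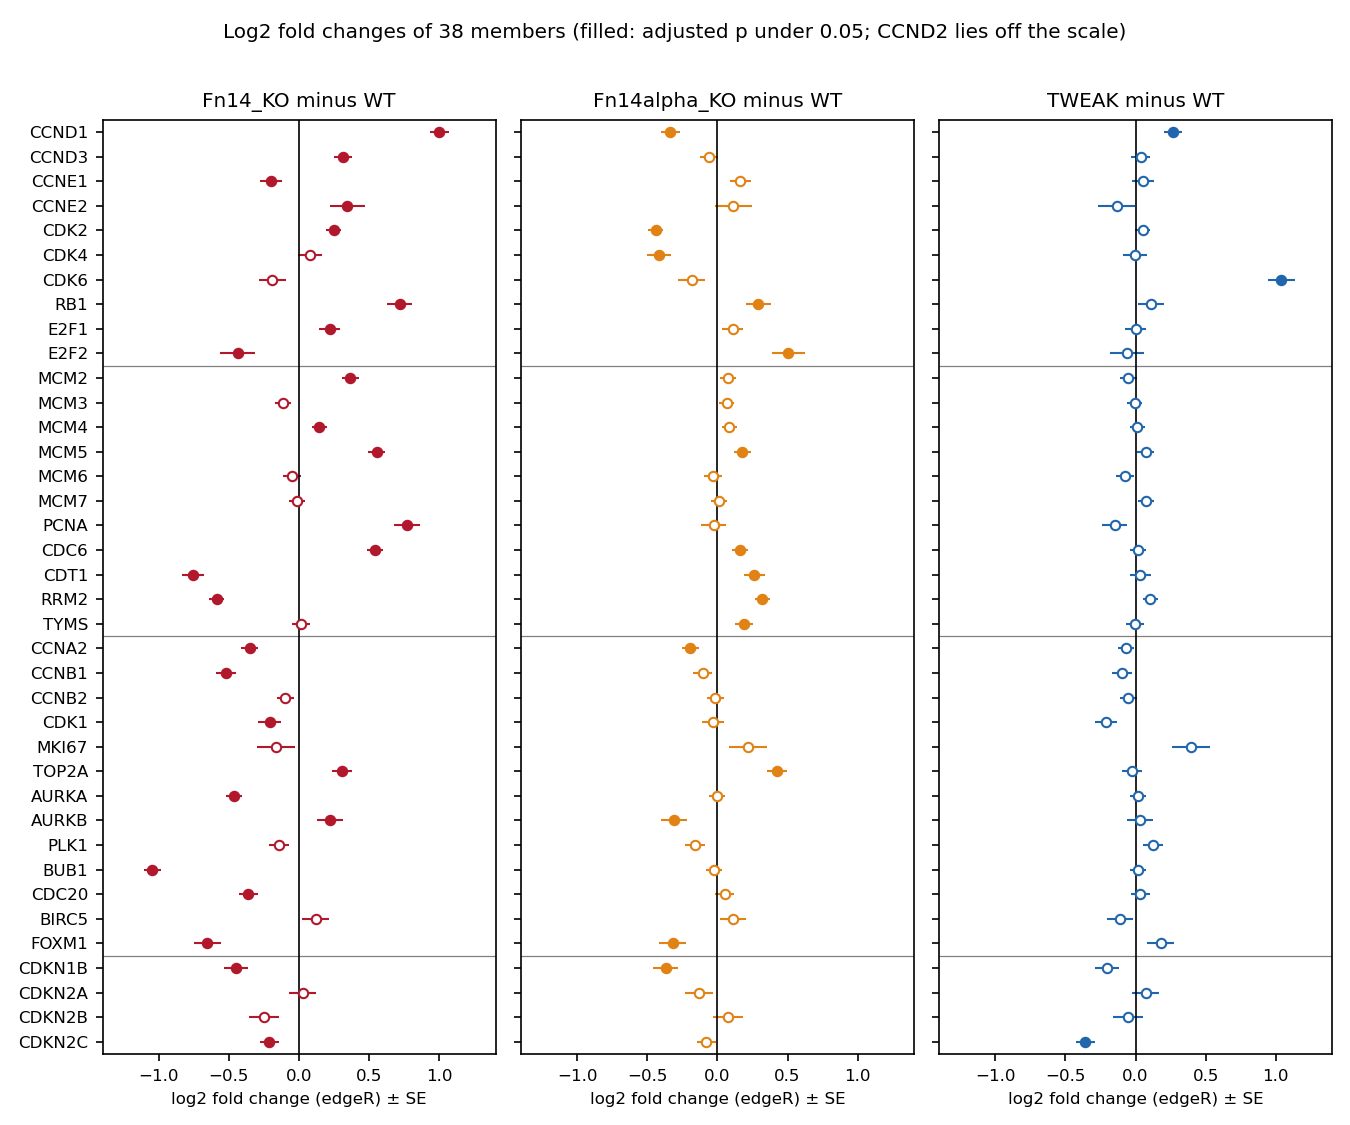
Each row is a member and each point its edgeR log2 fold change with SE, for Fn14_KO (left), Fn14alpha_KO (middle) and TWEAK (right), each minus WT, with filled points at an adjusted p under 0.05 and grey lines between the classes. Filled points run from −1.05 (BUB1) to 1.00 (CCND1) in Fn14_KO, while the TWEAK panel has filled points for CCND1, CDK6 and CDKN2C only. CCND2 is left out because it lies off the scale in both knockouts.

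Many members moved with the genes that lie beside them on the chromosome. For each member the median log2 fold change of the 50 nearest tested genes on either side was taken, and the test was repeated with that median removed. In Fn14_KO against WT the neighbours' median was 0.72 at PCNA (own value 0.77), −0.61 at CDT1 (−0.76), −0.60 at FOXM1 (−0.65), 0.43 at MCM5 (0.55) and 0.35 at MCM2 (0.36). At CCND1, E2F2, CDK2 and CCNB1 it was −0.02, −0.05, −0.03 and −0.11, against own values of 1.00, −0.44, 0.25 and −0.52. Whole chromosomes were shifted too: on chromosome 12, which holds CCND2, CDK2, CDK4, FOXM1 and CDKN1B, 68% of 853 tested genes were lower in Fn14alpha_KO than in WT (median −0.47). On chromosome 22, which holds MCM5, 59.7% of 385 were higher in Fn14_KO (median 0.42). Copy number was not measured, and its part in these values was not tested.

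With the neighbours' median removed, Fn14_KO had 7 members higher and 11 lower than WT, and 14 of its 27 calls remained in the same direction. The 7 and 11 were 17.9% and 28.2% of the 39 tested, beside 3218 higher and 3513 lower among all 16029 genes. The log2 fold changes of RB1, RRM2, BUB1, AURKA and CCNA2 were reduced by more than 1.5 times with their calls kept. Those of CCNB1 and CDC20 were reduced by less than that, and CCND1 (1.02) and E2F2 (−0.39) remained called. The calls lost were those of PCNA, CDT1, FOXM1, MCM2, MCM5, CDC6, TOP2A, AURKB, E2F1, CCND3, CCNE1, CDKN1B and CDKN2C, and MCM3 and CCNB2 were then called lower and MCM6 and MCM7 higher.

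In Fn14alpha_KO the removal left 4 members higher and 5 lower than WT (10.3% and 12.8%, beside 2350 and 2690 of all 16029 genes). Of its 16 calls, 6 remained: CCND1 (−0.32), CCND2, E2F2 (0.40), AURKB (−0.34), RRM2 (0.17) and TYMS (0.34). CDC6 and CDKN1B were called in the other direction, and CDK2, CDK4, FOXM1, CCNA2, RB1, MCM5, CDT1 and TOP2A were no longer called. All 3 TWEAK calls remained, at 1.07 for CDK6, 0.26 for CCND1 and −0.30 for CDKN2C, and RRM2 was then called higher (0.18, adjusted p = 0.0468; alternatives 0.0468 to 0.621). Between the knockouts 9 members were higher and 13 lower (23.1% and 33.3%, beside 3876 and 3853 of all 16029 genes). The differences of CCND1 (1.34), E2F2 (−0.80), BUB1 (−0.51), RRM2 (−0.40), CDT1 (−0.22), CDK2 (0.29), AURKB (0.27) and PCNA (0.24) remained called.

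**Figure D5:**
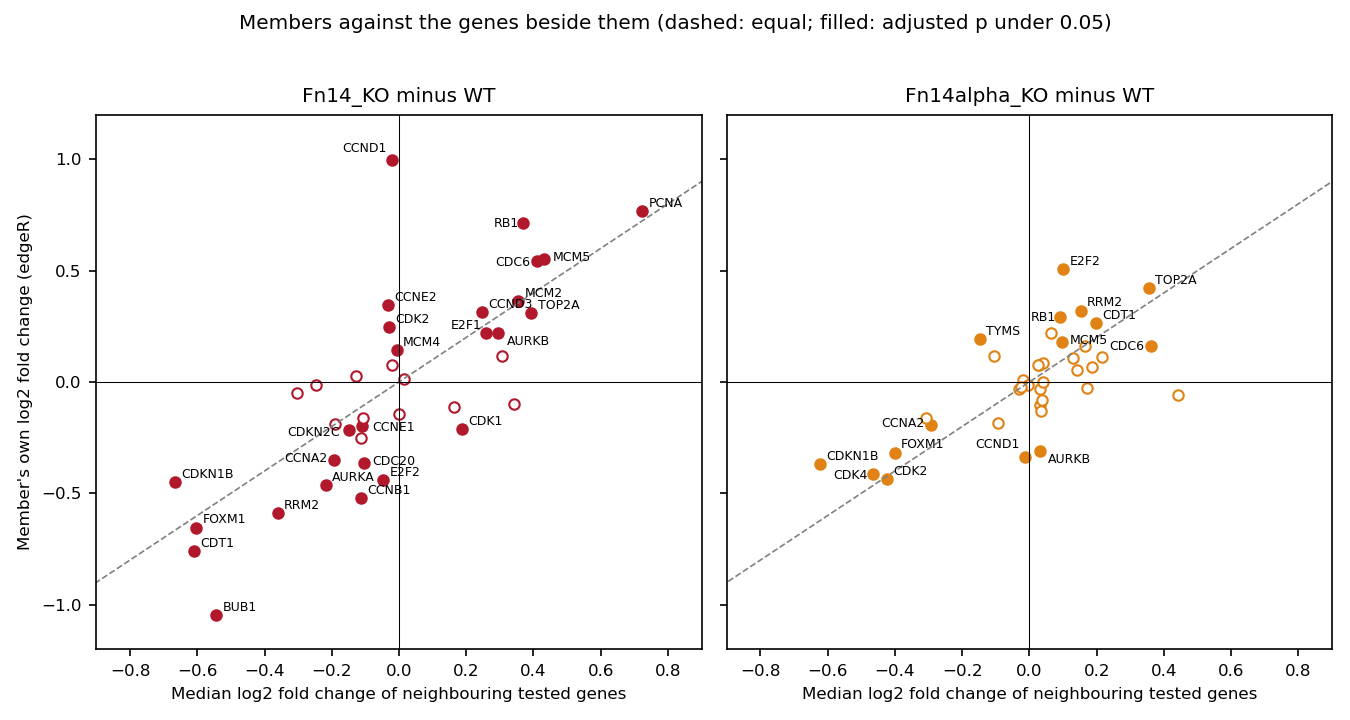
Each point is a member, with the median log2 fold change of the 50 nearest tested genes on either side on the x axis and its own edgeR log2 fold change on the y axis, for Fn14_KO (left) and Fn14alpha_KO (right), each minus WT. Filled points have an adjusted p under 0.05 and the dashed line marks equal values. PCNA, MCM2 and FOXM1 in Fn14_KO and CDK2 and CDK4 in Fn14alpha_KO lie near the line, and CCND1 lies far from it in both. CCND2 is left out.

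Further genes of the cycle, in lists chosen by function, were also called in both directions in the knockouts. Of 42 other replication and S-phase genes, 13 were higher and 9 lower in Fn14_KO than in WT, 8 and 6 in Fn14alpha_KO, and 0 and 2 with TWEAK. These were 31% and 21.4% in Fn14_KO beside 26.6% and 26.3% of all genes, and 19% and 14.3% in Fn14alpha_KO beside 20% and 22.2%. With TWEAK the shares were 0% and 4.76% beside 4.82% and 2.05%. In Fn14_KO total counts gave 10 higher and 20 lower, and the neighbours' median removed gave 11 and 3. In Fn14alpha_KO the removal gave 6 and 1. Of those called with TWEAK, one was PRIM1, of the primase (−0.41 ± 0.10, adjusted p = 0.0137, edgeR), lost without WT replicate 4 or TWEAK replicate 4 (alternatives 0.00351 to 0.0623). The other was CDC7, the kinase that fires origins (−0.28 ± 0.08, adjusted p = 0.0207, edgeR), lost without WT replicate 1, WT replicate 4, TWEAK replicate 3 or TWEAK replicate 4 (alternatives 0.00541 to 0.104). GINS1, a subunit of the replicative helicase, averaged 14.6 ± 1.09 FPKM in Fn14_KO, 9.02 ± 0.469 in Fn14alpha_KO, 6.38 ± 0.179 with TWEAK and 7.14 ± 0.497 in WT (1.15 ± 0.07, adjusted p = 1.26e-12 in Fn14_KO against WT, edgeR), and 0.70 with the neighbours' median removed. RFC4, a subunit of the clamp loader of PCNA, was lower in Fn14_KO (−0.54 ± 0.09, adjusted p = 1.83e-05, edgeR; 0.12 with neighbours removed). POLA2, a subunit of DNA polymerase alpha, was higher (0.49, adjusted p = 0.00566; alternatives 3.82e-05 to 0.0671, lost with limma on FPKM), with 4.98 FPKM in replicate 1 against 2.77 to 3.10 in the other 3. In Fn14alpha_KO the largest changes against WT were in POLA1 (0.67), RFC5 (−0.60; −0.13 with neighbours removed) and RPA1 (−0.52), and between the knockouts in GINS1 (0.85), POLA1 (−0.78) and RPA1 (0.77).

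Of 44 other G2/M and mitotic genes, 17 were lower and 8 higher in Fn14_KO than in WT, 38.6% and 18.2% beside 26.3% and 26.6% of all genes, 25 and 4 with total counts, and 21 and 3 with the neighbours' median removed. ECT2, an exchange factor of cytokinesis, averaged 20.8 ± 2.35 FPKM in Fn14_KO, 36.7 ± 2.24 in Fn14alpha_KO, 35.6 ± 1.77 with TWEAK and 37.7 ± 2.42 in WT (−0.74 ± 0.07, adjusted p = 6.33e-09 in Fn14_KO against WT, edgeR; −0.21 with neighbours removed). CENPE, a kinetochore motor, averaged 7.69 ± 1.17 FPKM in Fn14_KO, 11.1 ± 0.895 in Fn14alpha_KO, 14 ± 0.949 with TWEAK and 13.4 ± 0.235 in WT (−0.69 ± 0.08, adjusted p = 1.53e-07). SGO1, the protector of sister chromatid cohesion, was higher, at 14.7 ± 1.43 FPKM in Fn14_KO, 8.43 ± 0.535 in Fn14alpha_KO, 8.9 ± 0.542 with TWEAK and 8.49 ± 0.14 in WT (0.90 ± 0.07, adjusted p = 3.99e-10, edgeR; 0.16 with neighbours removed). In Fn14alpha_KO 9 were lower and 4 higher (20.5% and 9.09% beside 22.2% and 20%; 5 and 1 with neighbours removed), led by KIF4A (−0.96; −0.02 with neighbours removed), CKS2 (−0.60; −0.22) and RACGAP1 (−0.48; −0.07), and none of the 44 was called with TWEAK. Of all genes, 6.87% were called with TWEAK. Between the knockouts 15 of the 44 were lower and 10 higher in Fn14_KO, 34.1% and 22.7% beside 28.5% and 30.7% of all genes. The largest differences were in SGO1 (0.95, or 0.18 with neighbours removed), CKS2 (0.76, or 0.36) and CENPA (−0.71, or −0.21).

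Of 16 other genes of E2F factors, pocket proteins and MuvB subunits, 8 were higher and 3 lower in Fn14_KO, and 7 and 1 in Fn14alpha_KO, against WT. These were 50% and 18.8% in Fn14_KO beside 26.6% and 26.3% of all genes, and 43.8% and 6.25% in Fn14alpha_KO beside 20% and 22.2%. Net of the neighbours' median, Fn14_KO had 8 higher and 2 lower and Fn14alpha_KO 2 and 0, and with total counts Fn14_KO had 6 and 4. TFDP1, the partner that E2F factors need to bind DNA, had 187, 183, 180.1 and 197 FPKM in Fn14_KO and 68.2, 66.1, 71.5 and 73.3 in Fn14alpha_KO. With TWEAK, TFDP1 had 58, 53.4, 58.6 and 54.9 FPKM, against 58.8, 60.5, 56.9 and 63 in WT. Every Fn14_KO library was above all 12 others, with a log2 fold change of 1.76 ± 0.06 (adjusted p = 2.51e-17, edgeR), 0.81 with the neighbours' median of 0.95 removed. RBL1, the pocket protein p107, averaged 27.1 ± 3.6 FPKM in Fn14_KO, 19.2 ± 1.31 in Fn14alpha_KO, 17.8 ± 1.01 with TWEAK and 18.2 ± 1.63 in WT (0.69 ± 0.08, adjusted p = 1.38e-07 in Fn14_KO against WT). The repressor E2F6 was lower (−0.60 ± 0.10, adjusted p = 3.3e-05, edgeR; −0.24 with neighbours removed). In Fn14alpha_KO E2F3 (0.39; 0.07 with neighbours removed) and RBBP4 (0.32) were higher. With TWEAK E2F4 was higher (0.23 ± 0.06, adjusted p = 0.0123, edgeR), a call lost without TWEAK replicate 3 and with total counts (alternatives 0.000288 to 0.0696). Of 12 other CDK regulators, 3 were higher and 5 lower in Fn14_KO, 2 and 4 in Fn14alpha_KO and none was called with TWEAK. These were 25% and 41.7% in Fn14_KO beside 26.6% and 26.3%, and 16.7% and 33.3% in Fn14alpha_KO beside 20% and 22.2% of all genes. With TWEAK 6.87% of all genes were called. CDKN1A, the CDK inhibitor p21, averaged 17.7 ± 1.06 FPKM in Fn14_KO, 18.5 ± 1.02 in Fn14alpha_KO, 49.4 ± 5.1 with TWEAK and 47.4 ± 2.48 in WT. It was lower in both knockouts (−1.30 ± 0.07, adjusted p = 4.23e-13 in Fn14_KO, and −1.39 ± 0.07, adjusted p = 4.47e-13 in Fn14alpha_KO, edgeR), and more so with the neighbours' median removed (−1.52 and −1.78). MNAT1, of the CDK-activating kinase, was lower in Fn14_KO (−0.67) and CKS1B, a CDK subunit, higher (0.63; 0.16 with neighbours removed). SKP2, which marks p27 for destruction, was higher in both knockouts (0.34 and 0.36).

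Without WT replicate 4 and Fn14_KO replicate 1, the members called higher and lower numbered 13 and 16 in Fn14_KO, 11 and 10 in Fn14alpha_KO and 3 and 1 with TWEAK, each against WT, and 11 and 16 between the knockouts. In that order these were 33.3% and 41%, 28.2% and 25.6%, 7.69% and 2.56%, and 28.2% and 41% of the 39 tested. Over all 16029 genes, 4414 were then higher and 4429 lower in Fn14_KO, 3419 and 3771 in Fn14alpha_KO and 914 and 424 with TWEAK, each against WT. Between the knockouts the all-gene numbers were 5137 and 4822. The Fn14alpha_KO calls included 4 and 5 genes of G1/S control (36.4% and 45.5%) and 2 and 4 of S/G2 and mitosis (15.4% and 30.8%). Genes on the opposite strand overlap 17 of the 40 members at 0.05 FPKM or more, and the sources used here do not state the strand setting of the counting, so reads of such a pair cannot be told apart. The most abundant of these partners were RHNO1 at FOXM1, with a mean of 22.5 FPKM over all libraries, and EXOSC9 at CCNA2, with 15.8 FPKM, while LTO1 at CCND1 averaged 4.89 FPKM. RHNO1 averaged 14.7 FPKM in Fn14_KO, 22.3 in Fn14alpha_KO, 26.2 with TWEAK and 26.7 in WT. EXOSC9 averaged 11.7, 17.1, 16.3 and 18.4 FPKM in that order, and LTO1 4.88 in Fn14_KO and 5.01 in WT. The part of partner reads in the members' values was not tested.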

How the data were processed

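RNA was measured in 16 libraries, 4 in each of 4 groups. The authors deposited a count and an FPKM per gene and library, and the FPKM equals the count divided by gene length and by the library's total. The submitters' processing notes name HISAT2 2.0.1, HTSeq 0.6.1, DESeq2, FastQC 0.10.1 and cutadapt 1.9.1, and the builds GRCh38.p13 and hg38. The sources used here do not state the strand setting, the annotation release or how reads shared by similar genes were handled.

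The deposited counts were tested with edgeR 4.0.16 (R 4.3.3) by the two-sided quasi-likelihood test, with TMM scaling, filterByExpr and 12 residual degrees of freedom, and p-values were adjusted by Benjamini-Hochberg over 16029 genes, with a call at 0.05. On simulated data for Fn14_KO minus WT, this test recovered 195 of 200 changed genes and made 10 false calls among the unchanged genes of 16029. The simulation gave every gene the same dispersion (0.0075) and changed only well-counted genes. It held no deviant libraries or regional shifts, so it does not measure the error rate in these data. Alternatives used DESeq2 1.42.0, limma 3.58.1 on log2 FPKM, other scalings and filters, a replicate block, single libraries left out, and the median of the 50 nearest tested genes on either side removed. Replicates differed by more than sampling noise, with chi-square per degree of freedom from 2.30 to 39.0 over 24 pairs, and were each counted. Promoters came from RefSeq and were scanned with Python 3.11.15.

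The members and lists were chosen with earlier results of these data known. Per-library values are given for up to 4 called members of each class with the largest fold changes and for exceptions within a class, and from each other list up to 3 called genes per comparison at 2 FPKM or more. MKI67, CDK1, TFDP1, GMNN and SKP2 and the printed promoters were also picked after their values were seen.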

Additional observations from a re-analysis of the deposited data

Results flagged for a closer look

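In 14 of 160 groups of 4 libraries, 1 library's FPKM lay far from the other 3 by Dixon's criterion, where chance gives about 1 in 20. WT replicate 4 accounted for 5 of them. It had 289.84 FPKM of PCNA, where the other WT libraries had 210.34 to 216.97, and 47.14 of FOXM1, where they had 64.9 to 66.65. It was also high in MCM3 at 95.99 FPKM (others 90.77 to 91.1), AURKA at 148.81 (138.34 to 140.07) and CDKN2C at 31.58 (27.23 to 27.92).

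Fn14_KO replicate 1 accounted for 3, in the same directions for PCNA at 424.47 FPKM (others 341.63 to 349.45) and FOXM1 at 27.85 (37.67 to 39.56), and for CDKN1C at 0.05, where the others were at 0. Fn14_KO replicate 4 was low in CCND3 at 18.65 FPKM (others 21.47 to 21.96) and AURKA at 87.6 (96.24 to 97.9). Fn14alpha_KO replicate 4 was low in MCM4 at 26.27 (28.54 to 28.96). Fn14alpha_KO replicate 3 was high in CCNB1 at 180.66 (165.31 to 166.74) and in CCND2 at 0.03, where the others were at 0. TWEAK replicate 3 was low in PCNA at 187.83 (204.26 to 207.64).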

How the results depend on the processing

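Of the called fold changes of 39 members and TNFRSF12A, each tried under 19 alternatives, 474 of 532 trials in Fn14_KO minus WT kept direction and call, 298 of 323 in Fn14alpha_KO minus WT, 454 of 475 between the knockouts and 52 of 57 for TWEAK minus WT. All 10 changes of direction came with the median of neighbouring genes removed: CDKN1B (0.22), TOP2A (−0.0852), AURKB (−0.0738) and E2F1 (−0.0405) in Fn14_KO, CDC6 (−0.20), CDKN1B (0.25), CCNA2 (0.0997), FOXM1 (0.0831) and CDK4 (0.0495) in Fn14alpha_KO, and MCM2 (−0.0397) between the knockouts. That setting gave 7 members higher in Fn14_KO, and 4 higher and 5 lower in Fn14alpha_KO. For TWEAK, total counts gave 1 higher and 2 lower, and limma gave 1 higher with a pseudocount of 1 and 1 with 0.1. Without WT replicate 4 and Fn14_KO replicate 1, 11 were higher in Fn14alpha_KO. With 1 replicate left out, the members called higher numbered 1 to 2 with TWEAK, 5 to 8 in Fn14alpha_KO (5 without Fn14alpha_KO replicate 3) and 10 to 13 in Fn14_KO, and those lower 1 to 1, 8 to 10 and 12 to 15. Calls over all genes stayed within 1.5 times of the main number under each alternative. With the replicate number as a block (replicate block) they came to 893 for TWEAK, 6454 for Fn14alpha_KO and 8205 for Fn14_KO against WT and 9241 between the knockouts. Only 5 of 24 same-numbered pairs deviated together at r over 0.1 (range −0.52 to 0.29). WT replicate 4 and Fn14_KO replicate 1, with different numbers, did so at r = 0.61. These values cannot show which libraries were prepared together. The block ended 1 member's call, that of AURKB in Fn14_KO (edgeR adjusted p = 0.0715). Causes of these shifts were not tested. Counts of CCND2 in the knockouts and of CDKN1C are too low for firm folds.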
